A study of Mus musculus with 12 samples.

Results

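Methylation of lysine 4 of histone H3 (H3K4) was compared between its mono- (H3K4me1), di- (H3K4me2) and trimethylated (H3K4me3) states in growing C2C12 myoblasts, around the transcription start sites (TSSs) of protein-coding genes and at sites more than 5 kb from any TSS. The members are the 3 myoblast libraries made with antibodies against these states, of 12 chromatin immunoprecipitation and sequencing (ChIP-seq) libraries in the series, which cover 6 histone marks in myoblasts and in myotubes. C2C12 is a mouse myoblast line of the C3H strain that fuses into myotubes when serum is withdrawn. The untreated cells of all 3 libraries were at passages 15 to 18 and near confluence in medium with 10% serum. They are a cultured line and carry no transgene or silencing agent according to the labels. One library was sequenced for each mark, so no value below has a replicate, no p-value is given, and every interval in parentheses is a 95% interval for counting error only. The reads come from a PCR without molecular identifiers and are not independent molecules, so the true uncertainty is wider.

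The enzymes that methylate H3K4 add 1 methyl group at a time, and demethylases take them off again. Trimethylation is known as a mark of the promoters of active genes and of CpG islands, and monomethylation as a mark of enhancers and of the flanks of promoters. Dimethylation is known from both. The nucleosome over an active TSS is often displaced, which leaves a dip in profiles of histone marks.

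The libraries held 6471484 reads for H3K4me1, 4288951 for H3K4me2 and 2770947 for H3K4me3 on chromosomes 1 to 19 and X, or 2.53, 1.68 and 1.08 reads per kb of genome. Levels are given as fold, the reads in a bin or window over the mean of the same library across the genome. A fold depends on the antibody and on how many reads fell outside enriched regions, so folds of 2 marks are compared as enrichments and not as amounts of methylated histone. The deposited peak lists held 45.3% of the reads of H3K4me1, 59.2% of H3K4me2 and 34.1% of H3K4me3, each in its own list. The 3 marks were precipitated separately from many cells, so that marks on 1 nucleosome and marks on different copies of a locus cannot be told apart.

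6 windows of 300 bases of the mm9 genome are shown, for sites and promoters that differed in the order or in the level of the marks. The first pair are the sites over 5 kb from any TSS with the most H3K4me1 and with the most H3K4me3 reads, centred on the match to the AP-1 motif nearest to the middle of the site. AP-1 is a family of transcription factors that binds TGACTCA or its reverse complement TGAGTCA, and the E-box CAGCTG is a sequence bound by myogenic factors such as MyoD. Capitals mark matches to these motifs on either strand. Of all 44467 distal sites, 6226 held an AP-1 match and 10099 (22.7%) an E-box match in the 300 bases at their middle. Within 500 bp of the middle, the reach used to centre a window, 35.4% held an AP-1 match. The H3K4me1 site lies in an intron at chr8:124679488-124679787, and the H3K4me3 site, with 28 CpG dinucleotides, lies outside genes at chr12:111829436-111829735, nearest to Dync1h1.
H3K4me1 site nearest to Gm22: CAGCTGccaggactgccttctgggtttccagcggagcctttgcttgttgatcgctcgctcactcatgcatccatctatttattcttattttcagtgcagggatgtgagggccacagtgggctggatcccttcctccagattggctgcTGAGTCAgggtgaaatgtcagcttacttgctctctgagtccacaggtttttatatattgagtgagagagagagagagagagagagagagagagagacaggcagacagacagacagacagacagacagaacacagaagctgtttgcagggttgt
H3K4me3 site nearest to Dync1h1: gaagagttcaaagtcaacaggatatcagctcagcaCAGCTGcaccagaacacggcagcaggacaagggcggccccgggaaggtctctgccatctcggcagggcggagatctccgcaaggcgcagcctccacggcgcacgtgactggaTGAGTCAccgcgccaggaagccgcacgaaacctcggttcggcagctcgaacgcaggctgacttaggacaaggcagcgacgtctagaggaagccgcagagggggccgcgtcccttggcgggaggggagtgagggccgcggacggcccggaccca

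The second pair lie upstream of Myod1, the gene of the myogenic regulator MyoD. They are the distal site nearest to its TSS, at chr7:53623390-53623689, which holds no match, and the one with the most H3K4me1 reads within 50 kb, at chr7:53608563-53608862, which holds 1 AP-1 and 2 E-box matches. The first window is the middle of its site, which has no AP-1 match within 500 bp. The second is centred on its AP-1 match, so this match is set by the choice of window. Both sites lie outside genes, and the capitals mark the same motifs.
Nearest to Myod1: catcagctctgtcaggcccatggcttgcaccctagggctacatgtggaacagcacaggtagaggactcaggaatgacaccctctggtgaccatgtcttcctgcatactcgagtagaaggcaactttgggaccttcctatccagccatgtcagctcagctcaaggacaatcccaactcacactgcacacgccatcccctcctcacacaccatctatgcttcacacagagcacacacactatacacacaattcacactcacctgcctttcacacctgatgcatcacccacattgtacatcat
Most H3K4me1 near Myod1: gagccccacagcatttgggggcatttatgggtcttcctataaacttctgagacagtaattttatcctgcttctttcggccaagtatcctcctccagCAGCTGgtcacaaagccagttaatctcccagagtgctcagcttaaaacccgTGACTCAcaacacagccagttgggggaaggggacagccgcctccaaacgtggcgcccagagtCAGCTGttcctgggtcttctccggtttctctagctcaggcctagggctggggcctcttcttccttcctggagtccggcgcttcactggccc

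The third pair are the 300 bases before the TSSs of Kmt2d, an H3K4 methyltransferase gene, at chr15:98701615-98701914 on the minus strand, and of Myog, which encodes the differentiation factor myogenin, at chr1:136186281-136186580 on the plus strand. Here the capitals mark CpG dinucleotides, by whose content the promoters were classed below. Kmt2d has 31 CpGs in this window and Myog 7, while the median over 22342 protein-coding promoters was 10, and 93.9% held at least 1. As many CpGs as in the Kmt2d window were present in 9.14% of promoters and as many as in the Myog window in 59.1%. Neither window holds an E-box match of these letters.
Kmt2d promoter: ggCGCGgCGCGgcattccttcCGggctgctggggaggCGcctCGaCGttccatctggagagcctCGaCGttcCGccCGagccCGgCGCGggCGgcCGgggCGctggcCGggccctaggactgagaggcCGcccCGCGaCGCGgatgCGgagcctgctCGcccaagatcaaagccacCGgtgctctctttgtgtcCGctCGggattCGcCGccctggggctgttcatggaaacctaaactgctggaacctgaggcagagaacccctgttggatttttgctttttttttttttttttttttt
Myog promoter: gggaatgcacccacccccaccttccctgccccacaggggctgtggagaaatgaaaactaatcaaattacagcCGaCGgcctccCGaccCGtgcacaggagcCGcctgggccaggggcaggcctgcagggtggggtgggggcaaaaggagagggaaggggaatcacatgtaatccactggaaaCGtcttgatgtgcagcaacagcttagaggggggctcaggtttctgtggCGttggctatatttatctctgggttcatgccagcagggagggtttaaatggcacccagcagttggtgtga

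The labelled cell type was checked first against the promoters of 7 myoblast genes (Myod1, Myf5, Cdh15, Des, Msc, Itga7 and Vim). All 7 had H3K4me2 and H3K4me3 at least 4-fold over the genome mean within 500 bp of the TSS, against 57.5% and 49.5% of all promoters. H3K4me1 reached 4-fold at 4 of the 7, against 23.0% of all promoters. Of 18 marker genes of other cell types, 1 had H3K4me1, 3 had H3K4me2 and 1 had H3K4me3 at this level. The liver gene Alb and the T-cell gene Cd3e had no read of any of the 3 marks, where 3 reads would give 1.18-fold for H3K4me1, 1.79-fold for H3K4me2 and 2.77-fold for H3K4me3. The exception for H3K4me1 was the insulin gene Ins2, at 10.3-fold (interval 6.71 to 15.0), and for H3K4me3 it was Sox2, at 4.61-fold (1.497 to 10.8).

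Around 22342 TSSs, 1 for each protein-coding gene at the start of its 5′-most coding transcript, all 3 marks had a maximum on either side of the TSS and a dip at its upstream edge. H3K4me1 reached 3.55-fold at 350 bp upstream and 3.17-fold at 1250 bp downstream. H3K4me2 reached 22.4-fold at 250 bp upstream and 30.97-fold at 150 bp downstream. H3K4me3 reached 15.5-fold at 250 bp upstream and 30.4-fold at 150 bp downstream. H3K4me2 and H3K4me3 thus peaked in the same bins, while the H3K4me1 maxima lay farther out, by 1 bin upstream and by more than 1 kb downstream.

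The lowest bin between the maxima was the one centred 50 bp upstream of the TSS for each of the 3 marks. There H3K4me1 fell to 2.24-fold (12666 reads), 0.706 times its lower maximum (0.690 to 0.723). For H3K4me2 the dip was 0.669 times the lower maximum (0.662 to 0.677), and for H3K4me3 it was 0.644 times (0.633 to 0.654). H3K27ac, a mark of active promoters and enhancers from the same cells, had its dip in the same bin at 0.626 times. H3K27me3, the mark of Polycomb repression, also had a dip in this bin, at 0.802 times its lower maximum, and H3K36me3 had its lowest bin 550 bp upstream. The dips rest on the direction of the reads, which was turned from the deposited sign because the reads of the 2 strands pair at a fragment's length only then. With the sign as deposited the ratios were 0.792 for H3K4me1, 0.944 for H3K4me2 and 1 for H3K4me3.

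**Figure D1:**
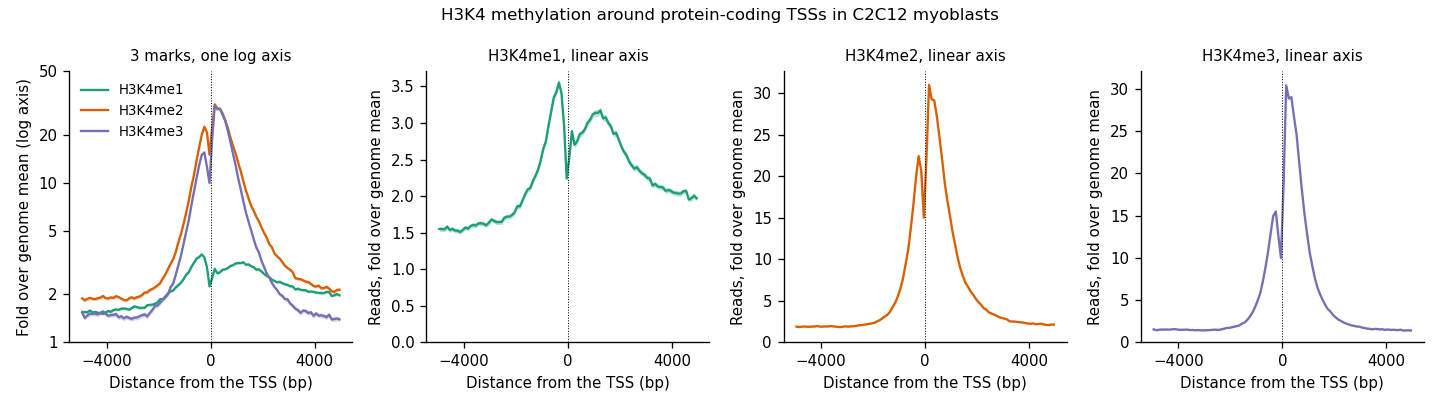
Reads of each mark in 100 bp bins from 5 kb upstream to 5 kb downstream of 22342 TSSs, oriented by gene strand, as fold over the genome mean (y axis), for the 3 marks on 1 log axis (left) and for each on its own linear axis. Shading, mostly narrower than the line, is the exact Poisson interval. H3K4me2 was highest in all 100 bins, and the H3K4me1 maxima at 3.55-fold and 3.17-fold stand on both sides of the narrow peaks of the other marks.

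The profiles leaned downstream to a degree that rose with the number of methyl groups. Reads within 3 kb downstream over those within 3 kb upstream were 1.21 for H3K4me1, 1.80 for H3K4me2 and 2.14 for H3K4me3. Width was taken between the outer points at which the upstream and downstream maxima fell to mid-height above the outermost kilobase of their side. It was 3200 bp for H3K4me1 and 1500 bp for H3K4me2 and for H3K4me3, and it includes the dip between the maxima. Genes on the plus strand and genes on the minus strand gave ratios of 1.23 and 1.19 for H3K4me1 and of 2.17 and 2.12 for H3K4me3.

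The order of the marks changed with the distance from the TSS. H3K4me2 was the highest in all 100 bins (in 51.0% of the bins for genes with no other TSS within 10 kb), H3K4me1 the lowest in 40 bins around the TSS and H3K4me3 the lowest in the other 60. H3K4me1 passed H3K4me3 at 1600 bp upstream and at 2200 bp downstream, counted as the first of 5 bins in a row, and passed H3K4me2 on neither side. At 1050 bp downstream the folds were 3.14 for H3K4me1, 13.4 for H3K4me2 and 10.7 for H3K4me3. At 4950 bp downstream they were 1.97, 2.13 and 1.39. Over the mean of 10 kb windows without a peak, in place of the genome mean, H3K4me1 passed H3K4me3 at 1100 bp upstream and at 1700 bp downstream.

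The position of H3K4me1 differed with H3K36me3, a mark that elongating RNA polymerase II leaves over gene bodies. Genes were ranked by H3K36me3 from 1 kb behind the TSS to the gene end and split into 4 groups of 4527 or 4528. In the lowest group, under 0.484-fold H3K36me3, H3K4me1 had no dip and was highest at 150 bp downstream, at 1.70-fold. In the second group its dip was 0.872 times the lower maximum (0.836 to 0.911), and in the third 0.607 times (0.579 to 0.635). In the highest group, above 5.09-fold H3K36me3, it was 0.365 times (0.350 to 0.382), between maxima of 6.56-fold at 550 bp upstream and 6.64-fold at 1450 bp downstream.

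Reads within 100 bp of the TSS over those 1 to 2 kb downstream gave the same contrast without a search for maxima. For H3K4me1 this ratio was 2.48 in the lowest group and 0.380 in the highest. Within 100 bp of the TSS the H3K4me1 level itself was 1.48, 3.77, 2.60 and 2.42-fold from the lowest to the highest group. At 1 to 2 kb downstream it was 0.599, 2.52, 3.69 and 6.37-fold. The level at the TSS was thus highest in the second group, while the level behind it was higher in each group than in the one below.

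H3K4me3 over the same groups was 1.78, 8.20, 25.0 and 30.4-fold within 100 bp of the TSS. Its maximum in the highest group was 71.6-fold, at 350 bp downstream, and 2.36-fold at 150 bp in the lowest. Its downstream lean was 1.04 in the lowest group, 1.36 in the second, 2.15 in the third and 2.64 in the highest. H3K4me2 dipped to 0.632 of its lower maximum in the third group and to 0.564 in the highest, with a maximum of 55.4-fold there. The lowest group had 7.11-fold H3K4me2 at 150 bp downstream and no dip.

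**Figure D2:**
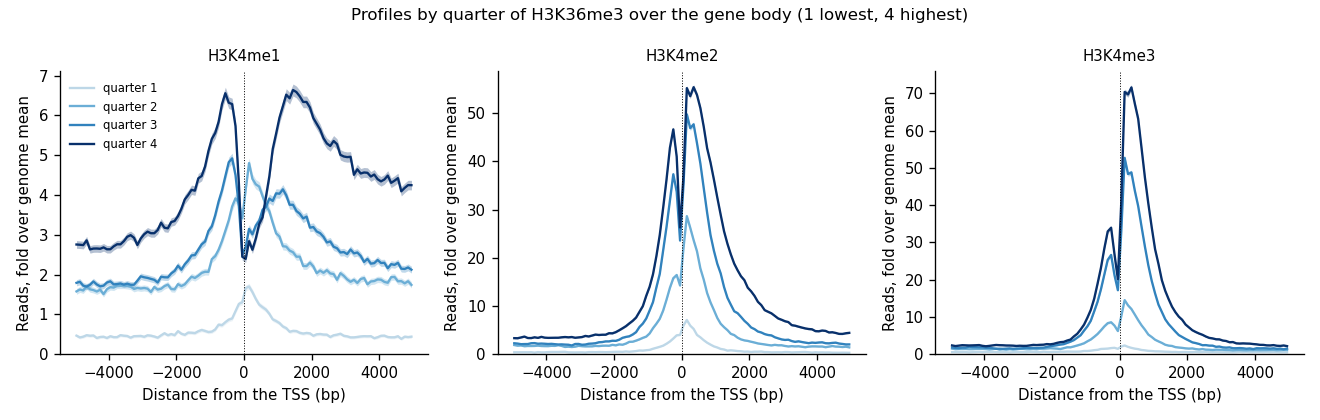
H3K4me1, H3K4me2 and H3K4me3 (fold over the genome mean, y axis) by distance from the TSS, for 4 groups of genes by H3K36me3 over the gene body, from the lowest (pale) to the highest (dark), with exact Poisson intervals as shading. The H3K4me1 curve turns from 1 maximum of 1.70-fold in the lowest group to 2 maxima of 6.56-fold and 6.64-fold on either side of a dip in the highest.

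CpG content, which no ChIP library entered, separated the promoters in a like way. The 8695 CpG-rich TSSs (GC content of at least 55% and an observed over expected CpG ratio of at least 0.6 in 1 kb) had dips of 0.405 for H3K4me1, 0.552 for H3K4me2 and 0.556 for H3K4me3. The 4766 TSSs of middle content had shallower dips, 0.821, 0.919 and 0.889 in the same order. At the 8881 CpG-poor TSSs, with a ratio under 0.4, H3K4me1 and H3K4me2 had no dip. Their maxima at 150 bp downstream were 2.63-fold for H3K4me1, 4.86-fold for H3K4me2 and 2.70-fold for H3K4me3, against 52.6-fold for H3K4me3 at CpG-rich TSSs. In the CpG-poor class H3K4me1 was already above H3K4me3 at 300 bp upstream of the TSS, where the search for a change of order began. At 150 bp upstream it was at 2.05-fold, against 1.29-fold for H3K4me3. It passed H3K4me2 at 500 bp upstream.

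By H3K27ac at the TSS, the H3K4me1 dip was 0.910 with 1 to 9 reads within 500 bp, 0.521 with 10 to 29 and 0.375 with 30 or more. A TSS with at least 10 such reads is called acetylated here. At the 2072 acetylated TSSs with a divergent neighbour, the TSS of a gene on the other strand within 1 kb upstream, the profiles were nearly symmetric. H3K4me3 had maxima of 64.7-fold at 350 bp upstream and 78.1-fold at 150 bp downstream, and a downstream lean of 1.09. The H3K4me1 dip was the deepest of all classes described, 0.297 (0.273 to 0.323), with maxima at 1150 bp upstream and 1250 bp downstream. At the 3955 acetylated TSSs with no TSS of another gene within 10 kb, the lean of H3K4me3 was 3.58 and the H3K4me1 dip 0.495 (0.471 to 0.520).

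At single promoters H3K4me2 or H3K4me3 was mostly the highest of the 3 marks. Of the 22342 promoters, 12885 passed a minimum of 10 reads of the 3 marks together, after scaling, within 500 bp of the TSS. The minimum can be met by any of the marks, and the 9457 promoters under it were mostly CpG-poor (79.3%). Among those that passed, the median level was 3.16-fold for H3K4me1, 35.2-fold for H3K4me2 and 31.4-fold for H3K4me3, from median counts of 8, 59 and 34 reads. The order H3K4me2 > H3K4me3 > H3K4me1 held at 43.9% of them and H3K4me3 > H3K4me2 > H3K4me1 at 38.7%. H3K4me2 > H3K4me1 > H3K4me3 held at 12.3%, and the order of decreasing enrichment with each added methyl group at 4.32%.

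This last order was more frequent away from the TSS. From 1 to 3 kb upstream it held at 31.8% of the 6413 promoters that passed the minimum there, and from 1 to 3 kb downstream at 16.5% of 10808. Downstream, H3K4me2 > H3K4me3 > H3K4me1 and H3K4me2 > H3K4me1 > H3K4me3 held at 28.1% and 27.4%. The promoters that pass differ between the windows, so these shares are not of 1 set of genes.

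A promoter was called for one mark over another when its fold, with 1 read added to each count, was at least 2 times that of the other. H3K4me3 was called over H3K4me1 at 9883 promoters (76.7%) and H3K4me1 over H3K4me3 at 1251 (9.71%). H3K4me2 was called over H3K4me3 at 30.4% of promoters and H3K4me3 over H3K4me2 at 9.96%. The promoters called for H3K4me1 over H3K4me3 were CpG-rich in 21.3% of cases, CpG-poor in 54.3% and acetylated in 11.8%. Those called for H3K4me3 were CpG-rich in 70.5%, CpG-poor in 3.06% and acetylated in 84.1%. Median H3K36me3 over the gene body was 0.903-fold in the first set and 4.53-fold in the second. With 5 reads added, 397 promoters were called for H3K4me1 over H3K4me3.

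A dip over the whole 1 kb around the TSS was found mostly for H3K4me1. Among promoters with at least 20 reads of a mark in the centre and both shoulders, which lie 1 to 3 kb from the TSS, the centre was below both shoulders per base at 24.7% for H3K4me1 (2485 of 10053). For H3K4me2 this was so at 0.908% (111 of 12224) and for H3K4me3 at 0.564% (57 of 10099). The dips of H3K4me2 and H3K4me3 in the mean profiles were narrower than this window. The centre was above both shoulders at 41.2% of promoters for H3K4me1, 89.6% for H3K4me2 and 91.9% for H3K4me3.

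The lists of genes differed in the order of the marks. Of 20 myoblast regulators and surface genes, 18 passed the minimum, and H3K4me3 was called over H3K4me1 at 16 (88.9%, against 76.7% of all promoters). The reverse call was made at 1, Cdh15. Of 15 housekeeping genes, 14 were called for H3K4me3 and 1, Ldha, for H3K4me1. All calls are at the 5′-most coding TSS, and Cdh15 and Ldha had higher H3K4me2 1 to 3 kb away from it. Of 17 genes of H3K4 methyltransferase complexes and demethylases, 15 passed and all of these were called for H3K4me3. The 2 that did not pass were Ash2l and Dpy30, subunits that these complexes share, with at most 3 reads of each mark at the 5′-most TSS.

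The 25 late muscle genes, which act in differentiated fibres, had another pattern. Only 14 passed, of which 8 were called for H3K4me1 over H3K4me3 (57.1%, against 9.71% of all promoters) and 1, Chrna1, for H3K4me3. The median level over all 25 was 4.74-fold for H3K4me1, 3.58-fold for H3K4me2 and 1.84-fold for H3K4me3. Of the 25, 15 had H3K4me1 at least 4-fold over the genome mean, 11 had H3K4me2 and 4 had H3K4me3, while 23.0%, 57.5% and 49.5% of all promoters did. The H3K4me1 share was thus above that of all promoters and the H3K4me3 share below it, while the H3K4me2 share lay nearer to it. All but Myh2 and Neb had a CpG-poor promoter. CpG-poor promoters made up 54.3% of all promoters called for H3K4me1 over H3K4me3 and 3.06% of those called for H3K4me3. The shares over all promoters are thus no baseline for CpG-poor ones, and the part of CpG content in the pattern was not tested. The fast troponin gene Tnni2 had 36 reads of H3K4me1, 6 of H3K4me2 and none of H3K4me3. Its H3K4me1 was at 14.2-fold (9.96 to 19.7), while 3 reads of H3K4me3 would have given 2.77-fold.

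Single genes show the range. Myod1 (TSS at chr7:53631844, plus strand) had 11 reads of H3K4me1, 24 of H3K4me2 and 17 of H3K4me3 within 500 bp of its TSS, or 4.34-fold (2.17 to 7.77), 14.3-fold (9.16 to 21.3) and 15.7-fold (9.13 to 25.1). H3K4me3 was 3.61 times H3K4me1 there (1.59 to 8.53), while the intervals of H3K4me2 and H3K4me3 overlapped. Its H3K4me3 peak was 4276 bp wide and ended 2790 bp downstream of the TSS. Myf5, the other regulator of myoblast identity, had 10, 42 and 32 reads, with H3K4me3 7.47 times H3K4me1 (3.58 to 17.0).

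Myog (TSS at chr1:136186581, plus strand), which is induced when myoblasts differentiate, had 25, 20 and 7 reads, or 9.87, 11.9 and 6.46-fold. Its 3 intervals overlapped, and H3K4me1 over H3K4me3 was 1.53 (0.643 to 4.19). The creatine kinase gene Ckm had 11, 4 and 0 reads and did not pass the minimum. The skeletal actin gene Acta1 had 12, 7 and 3 reads near its TSS, which puts H3K4me1 over H3K4me3 at 1.71 (0.462 to 9.46), together with 16 reads or 5.83-fold of H3K27me3. The slow troponin gene Tnni1 had 44, 49 and 2 reads and the myosin-binding protein gene Mybph 51, 59 and 4. At Mybph the H3K4me1 fold was 5.46 times that of H3K4me3 (2.01 to 20.8), and its H3K4me1 of 20.1-fold was the highest of the late list. Chrna1, the acetylcholine receptor subunit of muscle, differed from these with 15, 62 and 63 reads and 58.1-fold H3K4me3, the highest of the late list.

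Among myoblast regulators, Id1, an inhibitor of MyoD and its relatives, had the highest H3K4me3, 73.8-fold from 80 reads, beside 7 reads of H3K4me1. The cytoskeletal genes Actb (TSS at chr5:143668433, minus strand) and Vim (TSS at chr2:13495554, plus strand) had 86 and 40 reads of H3K4me3, 79.3-fold and 36.9-fold, and 14 and 3 reads of H3K4me1. Upstream of Actb, from 1 to 3 kb before the TSS, the order was reversed, with 30.2-fold H3K4me1 from 153 reads and 4.15-fold H3K4me3 from 9. Kmt2d, listed as Mll2 in the annotation (TSS at chr15:98701614, minus strand), had 4 reads of H3K4me1, 56 of H3K4me2 and 79 of H3K4me3, and its H3K4me3 of 72.9-fold was 46.1 times its H3K4me1 (17.3 to 173). The demethylase gene Kdm1a had 5, 10 and 14 reads. Itga7, an integrin of muscle cells, had 25, 84 and 76 reads and thus kept 9.87-fold H3K4me1 beside 70.1-fold H3K4me3.

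Among the genes of the myoblast and housekeeping lists that passed the read minimum, only Pax7, Cdh15 and Ldha had less H3K4me3 than H3K4me1. Twist1 and Pax3, which did not pass, had 5, 8 and 0 and 5, 6 and 2 reads of H3K4me1, H3K4me2 and H3K4me3. The satellite cell gene Pax7 (TSS at chr4:139389445, minus strand) had 12 reads of H3K4me1, 27 of H3K4me2 and 2 of H3K4me3, or 4.74, 16.1 and 1.84-fold, beside 3.65-fold H3K27me3. The cadherin gene Cdh15 had 28, 25 and 5 reads around its annotated TSS, but 320 reads of H3K4me2 and 90 of H3K4me3 from 1 to 3 kb downstream, 95.3-fold and 41.5-fold. Ldha had 18, 7 and 0 reads at its 5′-most TSS and 63 reads of H3K4me2, 18.8-fold, from 1 to 3 kb upstream. The elongation factor gene Eef1a1 had 9, 28 and 8 reads and no deposited H3K4me3 peak over its TSS. The authors kept uniquely aligned reads, so reads shared with other copies of a gene are missing from these counts.

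**Figure D3:**
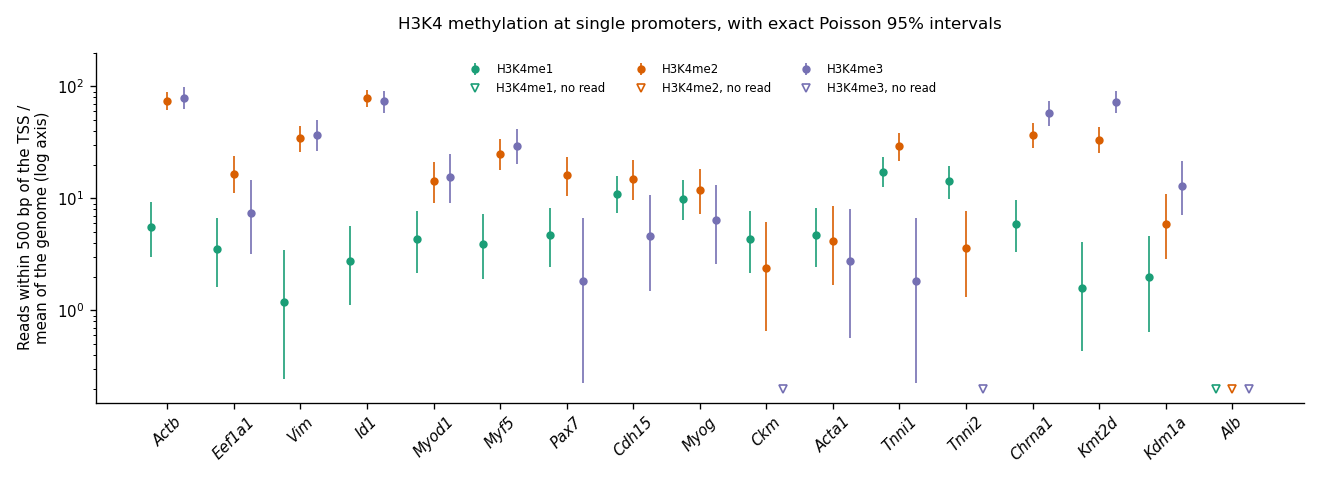
Reads within 500 bp of the TSS as fold over the genome mean (log y axis) for H3K4me1, H3K4me2 and H3K4me3 at 17 promoters, with exact Poisson intervals as bars. Open triangles at the bottom mark a count of 0, as for H3K4me3 at Ckm and Tnni2 and for all 3 marks at Alb. H3K4me1 lies below H3K4me3 from Actb to Myf5 and at Chrna1, Kmt2d and Kdm1a, and above it at Pax7, Cdh15, Myog, Acta1, Tnni1 and Tnni2.

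The deposited peaks differed in number, width and place. There were 67328 peaks of H3K4me1 with a median width of 933 bp, 37991 of H3K4me2 with 938 bp and 12583 of H3K4me3 with 2179 bp. Peaks more than 5 kb from any TSS made up 64.7% of the H3K4me1, 40.3% of the H3K4me2 and 12.2% of the H3K4me3 peaks. Distal peaks were narrower than those near a TSS, with median widths of 905 and 987 bp for H3K4me1, 723 and 1193 bp for H3K4me2 and 1316 and 2279 bp for H3K4me3. The lists were called by MACS on libraries of unequal depth and with settings not given in the sources used here, so that their number is no measure of the number of marked sites.

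The peaks were nested in part. 98.4% of H3K4me3 peaks overlapped an H3K4me2 peak and 58.8% an H3K4me1 peak, while 43.2% of H3K4me2 peaks and 14.5% of H3K4me1 peaks overlapped an H3K4me3 peak. Of H3K4me2 peaks, 68.7% overlapped one of H3K4me1. More than 5 kb from any TSS this share was 86.7%, and 62.5% of distal H3K4me2 peaks lay wholly inside an H3K4me1 peak, against 21.2% of those near a TSS. With peaks of score 100 and above alone, the share of H3K4me3 peaks that overlapped H3K4me1 was 36.1%.

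The widest H3K4me3 peaks over a TSS lay at Tnrc18, Setd1b and Irs1. They were 12027 bp, 11005 bp and 10255 bp wide. Setd1b encodes an H3K4 methyltransferase and Irs1 the docking protein of the insulin receptor. Over the whole peak H3K4me1 was 4.47, 7.72 and 2.77-fold and H3K4me3 40.9, 22.5 and 48.3-fold in the same order. Within 500 bp of the TSS the 3 genes had 1, 1 and 4 reads of H3K4me1.

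The end of the H3K4me3 peak was then taken as the origin, since the H3K4me1 maximum lay at different distances from the TSS in different genes. A TSS lay in a deposited H3K4me3 peak at 10120 genes, and the downstream end of that peak was a median of 1498 bp from the TSS. How H3K4me3 itself falls there is fixed by the choice of the origin. H3K4me1 was highest 250 bp inside the end, at 7.42-fold, and H3K4me2 850 bp inside, at 50.6-fold. Reads 500 to 1000 bp outside over those 500 to 1000 bp inside the end were 0.723 for H3K4me1 (0.714 to 0.731), 0.0882 for H3K4me2 (0.0873 to 0.0892) and 0.0560 for H3K4me3. H3K4me2 thus fell by more than 10 times across the end and H3K4me1 by less than 2 times.

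Genes were split into 4 groups by the distance from the TSS to this end, with medians of 975, 1344, 1676 and 2388 bp. In each group H3K4me1 was highest 250 bp inside the end, at 6.85, 6.55, 6.91 and 9.37-fold. Counted from the TSS, the downstream maximum of H3K4me1 lay at 550, 1150, 1250 and 2150 bp, and H3K4me1 passed H3K4me3 at 900, 1200, 1500 and 2800 bp. The downstream flank of H3K4me1 thus moved out with the H3K4me3 peak. The passing point shares the H3K4me3 reads with the rule that split the genes, while the H3K4me1 maximum does not.

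**Figure D4:**
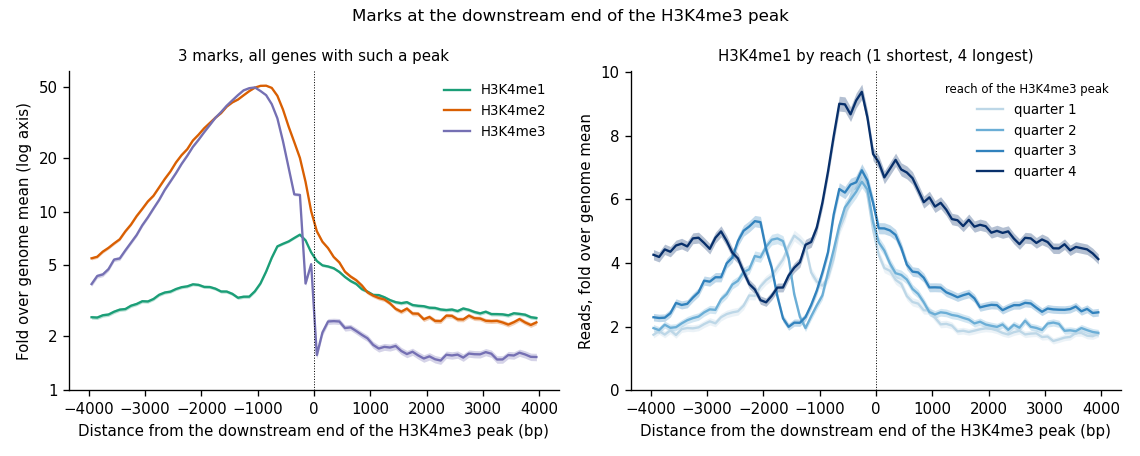
Left, the 3 marks (fold over the genome mean, log y axis) by distance from the downstream end of the H3K4me3 peak over the TSS at 10120 genes, with the gene's TSS to the left of 0. Right, H3K4me1 on a linear axis for 4 groups of genes by the reach of that peak, with its maximum 250 bp inside the end in each, at 6.55 to 9.37-fold, and exact Poisson intervals as shading.

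At sites away from TSSs the gradient turned round. The union of the 3 peak lists held 44467 sites more than 5 kb from any annotated TSS, and their mean profile reached 15.0-fold for H3K4me1, 9.40-fold for H3K4me2 and 2.85-fold for H3K4me3 at the middle. The order H3K4me1 > H3K4me2 > H3K4me3 held at 66.1% of the sites. H3K4me1 was at least 2 times H3K4me3 at 80.7% of them, H3K4me2 was at least 2 times H3K4me3 at 45.9%, and H3K4me3 at least 2 times H3K4me1 at 1.59%. Because the sites come mostly from H3K4me1 peaks, these shares are in part set by the choice of sites.

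The share of sites with more H3K4me1 than H3K4me3 was close to this in a list that the H3K4 marks did not choose, while both other shares were higher there. It is the peak list deposited with the H3K27me3 sample, which held reads of the H3K27ac library at 37.8-fold and of the H3K27me3 library at 0.821-fold, and it is called the H3K27ac-rich list here. At its 16909 distal sites H3K4me1 was at least 2 times H3K4me3 at 80.3%, H3K4me2 at least 2 times H3K4me3 at 65.2%, and H3K4me3 at least 2 times H3K4me1 at 3.10%. The median levels there were 14.2-fold for H3K4me1, 8.94-fold for H3K4me2 and 2.77-fold for H3K4me3. The median H3K4me3 count was 3 reads in 1 kb, so H3K4me3 at a single site was often close to the limit of this depth.

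Most distal sites in the union had a peak of H3K4me1 alone, 31599 of 44467 (71.1%), and 9859 had peaks of H3K4me1 and H3K4me2. All 3 marks had a peak at 1040 sites, H3K4me2 alone at 1588, H3K4me2 and H3K4me3 at 299, H3K4me1 and H3K4me3 at 46 and H3K4me3 alone at 36. CpG content, which the peaks did not use, differed between these classes, with a median observed over expected ratio of 0.193 at sites of H3K4me1 alone, 0.220 with H3K4me1 and H3K4me2, 0.298 with all 3 and 0.510 with H3K4me2 and H3K4me3. The ratio was 0.303 at sites of H3K4me2 alone, and in the smallest classes it was 0.182 with H3K4me1 and H3K4me3 and 0.310 with H3K4me3 alone. Sites of H3K4me2 and H3K4me3 lay outside annotated genes at 79.9% of its sites, against 47.0% of all distal sites, and TSSs absent from the annotation were not looked for.

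The sites with peaks of all 3 marks had a flat H3K4me1 profile. H3K4me1 there was highest 350 bp from the middle, at 15.5-fold, against 14.8-fold within 100 bp of it, and per base its reads within 100 bp of the middle were 0.988 times those 200 to 500 bp away (0.963 to 1.01). At sites of H3K4me1 alone this ratio was 2.19 and at sites of H3K4me1 and H3K4me2 it was 1.28. The H3K4me1 profile was thus wider where the other marks had a peak too. Its width at mid-height was 400, 1200 and 2300 bp over the 3 classes, whose median site widths were 801, 1609 and 2501 bp. A site is the merged stretch of its peaks and is centred on the middle of that stretch, so these shapes are in part set by the merging. At sites of H3K4me2 and H3K4me3 without an H3K4me1 peak the ratio for H3K4me1 was 0.990.

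At distal sites with an H3K4me1 peak, the mean fold of H3K4me2 rose more with H3K27ac than that of H3K4me1 did. The choice of these sites by H3K4me1 keeps that mark high at every level of H3K27ac, so its rise is in part set by the choice. From distal H3K4me1 sites with no H3K27ac read to those with 20 or more in 1 kb, the share with an H3K4me2 peak rose from 6.10% to 91.6%. The share with an H3K4me3 peak rose from 0.286% to 19.5%. A peak anywhere in a site counts, and the median site width rose from 628 to 2418 bp between the same classes. The part of width in these shares was not tested. H3K4me2 over H3K4me1, as the ratio of their summed folds, was 0.415 with no H3K27ac read, 0.466 with 1 to 4, 0.554 with 5 to 9, 0.721 with 10 to 19 and 1.03 with 20 or more. H3K4me3 over H3K4me1 stayed between 0.181 and 0.258 over the same classes. H3K4me3 over H3K4me2 fell from 0.514 to 0.251. With no H3K27ac read, H3K4me3 had a median of 0.922-fold and a mean of 1.32-fold, near the genome mean. Ratios with H3K4me3 thus start near its floor, and its rise cannot be ranked against that of H3K4me2. All 3 marks were higher with more H3K27ac, H3K4me1 from a mean of 6.20 to 23.7-fold, H3K4me2 from 2.57 to 24.4-fold and H3K4me3 from 1.32 to 6.13-fold.

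The 524 distal sites of the H3K27ac-rich list at which H3K4me3 was at least 2 times H3K4me1 had other sequence and surroundings. They were CpG-rich in 25.0% of cases, against 0.118% of the 13570 sites called for H3K4me1. They lay outside annotated genes in 70.8%, against 43.6%. An AP-1 match lay within 500 bp of the middle at 21.8% of them, against 40.9%. Their median H3K27ac was 24.8-fold, against 15.1-fold.

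Single distal sites, chosen for the most reads of H3K4me1 or of H3K4me3, showed opposite orders, which that choice in part sets. The site with the most H3K4me1, in an intron and nearest to Gm22, had 214 reads of H3K4me1, 101 of H3K4me2 and 1 of H3K4me3, or 84.5, 60.2 and 0.922-fold, with 94.96-fold H3K27ac. The next were a site in an intron near Capn2 (chr1:184428729-184437137) with 197, 57 and 7 reads and one outside genes near Irf2bp2 (chr8:129136166-129140552) with 195, 77 and 9. The site with the most H3K4me3, upstream of Dync1h1, showed the opposite order with 7 reads of H3K4me1, 112 of H3K4me2 and 127 of H3K4me3, or 2.76, 66.7 and 117-fold. The other sites of this kind lay near Gm13004 (chr4:136942919-136945522), with 7, 133 and 106 reads, and near Rnf4 (chr5:34677712-34681451), with 3, 65 and 104. These 3 had a CpG ratio between 0.719 and 0.861, and the sites near Gm22, Capn2 and Irf2bp2 between 0.183 and 0.268.

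At the distal sites with the most H3K4me2, that mark was also the highest of the 3, which their choice by H3K4me2 reads in part sets. The highest, in an intron near Gm15247 (chrX:166434612-166436261), had 63 reads of H3K4me1, 504 of H3K4me2 and 63 of H3K4me3, or 24.9, 300.3 and 58.1-fold. Sites in an intron near Agap2 and in an exon near Klhl31 had 320 and 319 reads of H3K4me2 and only 18 and 20 of H3K4me3. Their CpG ratios were 0.838, 0.764 and 0.958.

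Myod1 had 14 distal sites within 50 kb, all of them upstream, while Twist2 had 12, Id1 9, Vim 4 and Myf5 2. Such sites were not counted for genes at large, so neither number nor side can be read as particular to these genes. The Myod1 site with the most H3K4me1 reads lay at chr7:53607020-53609792, -23438 bp from the TSS. It had 67 reads of H3K4me1, 37 of H3K4me2 and 2 of H3K4me3, or 26.5, 22.0 and 1.84-fold, with 70.2-fold H3K27ac. The site nearest to the gene, at -8304 bp, had 15, 4 and 2 reads. H3K4me1 lay between 5.92 and 26.5-fold over the 14 sites, H3K4me2 between 2.38 and 22.0-fold and H3K4me3 between 0 and 5 reads. At the promoter of Myod1, in contrast, H3K4me3 was 15.7-fold. The distal sites come mostly from H3K4me1 peaks, so this contrast is in part set by their choice.

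The sites with the most H3K4me1 reads within 50 kb of 4 more genes also had more H3K4me1 than H3K4me3. Their choice by H3K4me1 reads in part sets this order. Id1 had 93, 61 and 5 reads at -7780 bp from its TSS (chr2:152551890-152556524), or 36.7, 36.4 and 4.61-fold. Twist2, a repressor of myogenic differentiation, had 90, 21 and 4 reads at a site in its intron, 17948 bp downstream of the TSS (chr1:93714351-93717621). The site for Vim, in an intron of Trdmt1, had 25, 13 and 1 reads. The site for Myf5, which lies nearer to Myf6, had 26, 7 and 7 reads, and the intervals of H3K4me1 and H3K4me3 overlapped there.

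A dip also appeared inside distal sites once they were centred on a sequence. In the H3K27ac-rich list, 6911 of the 16909 distal sites had an AP-1 match within 500 bp of the middle. Centred on the match, H3K4me1 within 100 bp was 0.819 times that 100 to 200 bp away (0.810 to 0.829), H3K4me2 0.812 times (0.7996 to 0.824), H3K4me3 0.815 times (0.785 to 0.846) and H3K27ac 0.688 times. The H3K4me1 maximum lay 250 bp from the match, at 18.4-fold, and the H3K4me2 maximum 150 bp from it, at 17.3-fold. The intervals of the 3 dips overlapped with 150 bp fragments for every mark. The strands paired at 220 to 230 bp for H3K4me3 and at 170 to 180 bp for H3K4me1 and H3K4me2. With 250 bp fragments H3K4me3 had the lowest ratio, as given below, so the likeness of the dips depends on this length.

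The same 6911 sites centred on their middle had no dip, with ratios of 1.19 for H3K4me1, 1.17 for H3K4me2 and 1.10 for H3K4me3. Centred on an E-box match, which 9246 of the sites had, the ratios were 1.05, 1.06 and 0.988, and that of H3K27ac was 1.003. The dip at AP-1 matches depends on the position given to a read. With the strand sign as deposited the ratios were 1.05, 1.17 and 1.16, and with unextended 5′ ends they were 0.969, 1.02 and 1.06. A match to the letters is no evidence that the factor was bound.

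**Figure D5:**
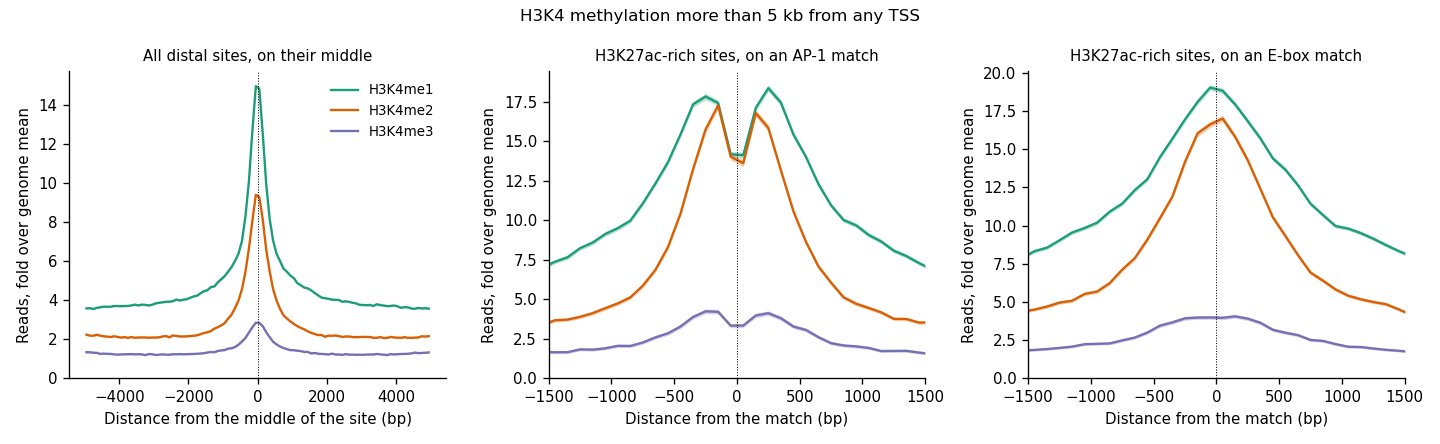
The 3 marks (fold over the genome mean, y axis from 0) by distance from the middle of all 44467 distal sites (left), from AP-1 matches at 6911 sites of the H3K27ac-rich list (middle) and from E-box matches at 9246 of them (right), with exact Poisson intervals as shading. H3K4me1 lies above H3K4me2 and H3K4me3 in the left panel, and all 3 curves dip at 0 in the AP-1 panel, at 0.812 to 0.819 times the level 100 to 200 bp away.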

How the data were processed

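ChIP-seq libraries for H3K4me1, H3K4me2 and H3K4me3, 1 of each, were compared in C2C12 myoblasts, with H3K27ac, H3K27me3 and H3K36me3 of the same cells beside them. Sonicated chromatin was precipitated with 1 antibody per mark, amplified by 15 PCR cycles as fragments of about 250 bp with adaptors, and sequenced as reads of 34 bp on an Illumina Genome Analyzer. The authors aligned the reads to mm9 with Mosaik 1.0.1384, kept unique alignments and called peaks by MACS, whose version and settings are not given in the sources used here. The deposited read files list 1 alignment per line, and read counts per bin were computed from them here. The score column of the deposited peak files was written by the peak caller of the authors and served only to select peaks. No column of per-sample values was left unmapped.

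The deposited strand sign was turned in all libraries. With the sign as deposited, 5′ ends of the strands paired at negative distances in the myoblast libraries. Each read was placed at the middle of a 150 bp fragment. The TSSs were 22342 starts of 5′-most protein-coding transcripts on chromosomes 1 to 19 and X of GENCODE M1 (Ensembl 65), and GC and CpG content came from the mm9 sequence. A promoter passed with 10 reads of the 3 marks together, scaled to equal library size, and 1 read was added to each count before a call. Intervals are exact Poisson intervals for levels, conditional binomial for ratios and Clopper-Pearson for shares. With 1 library a mark no test was made. The functions were tested on simulated data.

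The members and gene lists were chosen with earlier results of these data known. In full were named Actb, Eef1a1, Vim, Myod1, Myf5, Pax7, Myog, Ckm, Acta1, Kmt2d, Kdm1a and Alb, per list the genes with the highest H3K4me3 and the highest H3K4me1 over H3K4me3, the 3 widest H3K4me3 peaks over a TSS, the 3 distal sites with the most reads of each mark, and the distal site with the most H3K4me1 within 50 kb of Myod1, Myf5, Vim, Twist2 and Id1. Other genes were picked from the lists after their values were seen. Computations ran in Python 3.11.15 with scipy 1.17.1, numpy 2.4.6 and pandas 2.3.3, and matplotlib 3.10.9 drew the figures. One further myoblast marker is not reported here. The myotube libraries and their peaks were not used in the comparisons.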

Additional observations from a re-analysis of the deposited data

Results flagged for a closer look

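The libraries of the same 3 marks from myotubes lie outside the comparisons above, and each held signal at TSSs. Within 500 bp of the 22342 TSSs the myotube library of H3K4me1 was at 2.29-fold over its genome mean (2.27 to 2.30), from 125213 of 6266847 reads, against 2.93-fold in the myoblast library. H3K4me2 was at 11.99-fold in the myotube library, from 498075 of 4751850 reads, against 23.3-fold. H3K4me3 was at 16.6-fold (16.5 to 16.6), from 476815 of 3294370 reads, against 19.96-fold. With 1 library on each side these values compare libraries and not conditions. In the myotube libraries of H3K4me1 and H3K4me2 the strands paired at 40 to 50 bp and 60 to 70 bp with the sign turned, against 170 to 180 bp in the myoblast libraries, and the part of this in the lower folds was not tested.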

How the results depend on the processing

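No paired analysis was possible because each mark had 1 library and no test was made. Of 386 alternative values of 61 results, 273 stayed close to the main value. These lay within its counting interval, within 1.5 times it for counts and shares, or within a few bins for positions. For the main results this held for 98 of 169 alternative values, while 66 moved by more and 5 reversed. The values below are those of the main results that moved by more. Where H3K4me1, H3K4me2 and H3K4me3 are given together they stand in this order, and the cause of these changes was not tested. The dips at TSSs became 0.798, 0.904 and 0.911 with unextended 5′ ends, 0.736, 0.736 and 0.578 with 250 bp fragments, 0.684, 0.646 and 0.607 in 50 bp bins, 0.828, 0.843 and 0.741 in 200 bp bins, 0.727, 0.705 and 0.748 over all distinct TSSs, and 0.792, 0.944 and 1 with the deposited strand sign, an alternative chosen after seeing the data. For H3K4me1 and H3K4me3 they became 0.628 and 0.718 at the TSS with the most H3K4me3, 0.780 and 0.734 with no other TSS within 10 kb, and 0.685 and 0.628 for plus-strand genes. H3K4me3 dipped to 0.660 for minus-strand genes and H3K4me2 to 0.658 for genes of 5 kb and longer. H3K4me1 passed H3K4me3 at 1800 bp upstream and 1900 bp downstream of the TSS with the most H3K4me3, at 2000 bp downstream of all distinct TSSs (with no value upstream), at 1000 and 2400 bp with no other TSS within 10 kb, at 1100 and 1700 bp on the scale of windows outside peaks, at 1750 bp upstream in 50 bp bins and at 1800 bp upstream of minus-strand genes. H3K4me1 near the TSS over that 1 to 2 kb downstream, in the group with the most H3K36me3, was 0.447 with unextended 5′ ends, 0.396 with 250 bp fragments, 0.430 with no other TSS within 10 kb and 0.516 with the deposited sign, and in the lowest group it was 2.62 for genes of 5 kb and longer. Promoters called for H3K4me1 over H3K4me3 numbered 728 within 250 bp of the TSS, 397 with 5 reads added and 2225 with no minimum, with which 14897 were called for H3K4me3. Distal sites called for H3K4me3 over H3K4me1 made up 3.10% in the H3K27ac-rich list, 3.57% in 1 kb tiles rich in H3K27ac and 1.02% on the scale of windows outside peaks. The dip at AP-1 matches reversed to 1.02 for H3K4me2 and 1.06 for H3K4me3 with unextended 5′ ends, where H3K4me1 was 0.969, and to 1.05, 1.17 and 1.16 with the deposited sign. It was 0.832, 0.829 and 0.781 with 250 bp fragments, 0.930, 0.897 and 0.887 in the union of the peaks (added after seeing the data), 0.787 for H3K4me1 and 0.787 for H3K4me2 with a peak score of at least 100, and 0.830 for H3K4me1 with thinned libraries. With that score the median peak widths were 1311, 1310 and 2344 bp, 36.1% of H3K4me3 peaks overlapped H3K4me1, and H3K4me1 outside over inside the peak end was 0.739. This ratio was 0.789 with no other TSS within 10 kb and 0.739 with the deposited sign, and that of H3K4me2 was 0.0979 and 0.0923. Depth limits single sites most for H3K4me3, for which 3 reads in 1 kb are 2.77-fold.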

Other observations

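CpG-rich promoters with H3K27me3 had an order of marks unlike that of other CpG-rich promoters. At the 656 such TSSs with at least 10 H3K27me3 reads within 500 bp, H3K4me1 reached 6.43-fold, H3K4me2 31.1-fold and H3K4me3 5.20-fold. H3K4me1 was already above H3K4me3 at 300 bp on both sides of the TSS, where the search for a change of order began. Nearer to the TSS, at 150 bp upstream, H3K4me1 was at 4.45-fold and H3K4me3 at 2.95-fold. At the 8039 with fewer H3K27me3 reads, H3K4me2 reached 53.9-fold and H3K4me3 56.4-fold. The H3K4me1 dip was 0.859 (0.772 to 0.957) in the first set and 0.355 (0.342 to 0.369) in the second.

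H3K4me3 reached farther into genes with a long first exon. Acetylated TSSs were split into 3 groups by first exon length, with medians of 105, 213 and 415 bp. From 1 to 2 kb downstream H3K4me3 was 9.31, 10.4 and 17.4-fold over these groups, while H3K4me1 was 5.21, 5.14 and 5.03-fold. H3K4me1 passed H3K4me3 at 2100, 1900 and 2700 bp downstream.

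The peak list deposited with the H3K27ac sample held reads of the H3K27me3 library at 6.98-fold and of the H3K27ac library at 0.590-fold.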
